A study of Homo sapiens with 17 samples.

Results

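Insulin-like growth factors act through a small set of secreted and membrane-bound proteins, and 10 genes of that set were examined here in lung cancer cells. They are the IGF-binding proteins IGFBP1 to IGFBP7, the type 1 IGF receptor IGF1R and the insulin receptor substrates IRS1 and IRS2. Each was taken as the probe sets annotated with that symbol alone, with the brightest kept where a gene had several. The 10 genes stand among 17958 named genes measured on the same arrays. They were put together with earlier results in view: IGFBP7 entered because it was higher with LKB1 in both cell lines, so its values in that comparison are a description and carry no test. The other 9 genes were tested.

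The RNA came from A549 and H2122, established human lung adenocarcinoma lines that lack functional LKB1, the tumour suppressor kinase encoded by STK11. Each line had received a pBABE retrovirus with wild-type LKB1, with the kinase-dead mutant LKB1-K78I, or with no insert, and had been selected for stable expression in 1 µg/mL puromycin for 2 weeks. The labels do not say whether these were clones or pools. All cells were kept in RPMI1640 with 5% fetal bovine serum and collected in logarithmic growth, so IGFs from serum were present in every group. In A549 there were 3 pBABE, 3 K78I and 3 LKB1 arrays, and in H2122 there were 2 pBABE, 3 K78I and 3 LKB1 arrays. The pBABE and K78I arrays are called controls below (6 in A549, 5 in H2122). The question was how expression changes when active LKB1 is put back, for comparison with tumours that lost it; tumour data were not analysed here. LKB1 is produced from a retroviral promoter, the cells are tumour lines in culture, and their secreted proteins were not measured.

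IGFs circulate and rest in tissue bound to IGFBPs, which hold them away from their receptor, extend their life, and release them when proteases cut the carrier. A free ligand activates IGF1R, which phosphorylates IRS1 and IRS2; these dock PI3-kinase and so turn on AKT and mTORC1. AKT keeps FOXO transcription factors out of the nucleus, and IGFBP1 and IRS2 are long-known FOXO and cyclic AMP targets in liver. IGFBP7 belongs to the family by its domain, binds IGFs only weakly, and is best known from vessel walls, matrix and senescent cells.

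Several labels conflicted. Title and source name disagreed on the construct for 3 H2122 arrays, and titles were followed: pBABE replicate 2 (LKB1 by source name), LKB1 replicate 3 (K78I) and K78I replicate 3 (pBABE). STK11 itself read 6.33 and 6.22 (log2) on the H2122 arrays titled pBABE, 11.26 to 11.31 on those titled K78I and 11.20 to 11.35 on those titled LKB1. On pBABE replicate 2 (6.22) and K78I replicate 3 (11.26) STK11 thus went with the title and not with the source name. For LKB1 replicate 3 (11.26) it cannot tell the labels apart, since K78I and LKB1 arrays read alike. In A549 the library labelled pBABE replicate 3 stood at 10.52 for STK11, against 6.88 and 7.38 on the other pBABE arrays. The library labelled K78I replicate 2 stood at 7.14, against 10.54 and 10.42 on the other K78I arrays, while the LKB1 arrays read 9.42, 10.23 and 9.62. For IGFBP7 and the members called with LKB1, differences from the mean of both controls are given with and without these arrays. Differences from a single control are given only with them. Low cell cycle genes (mean over 17 measured genes) marked 3 control arrays, of which only A549 pBABE replicate 1 is not already named here for its labels or STK11: the library labelled A549 K78I replicate 2 at 9.19, A549 pBABE replicate 1 at 9.62 and H2122 pBABE replicate 2 at 8.20, where all other A549 arrays lay at 9.97 to 10.27 and all other H2122 arrays at 9.56 to 9.97. The 6 epithelial markers averaged 8.43 to 9.11 on A549 arrays, with 3 or 4 of them above the array's median gene, and 10.64 to 10.92 on H2122 arrays with all 6 above it. In A549 KRT8 and KRT18 were bright, while KRT19 (4.19 to 5.48) and CLDN4 (4.66 to 5.83) were dim. Of 7 fibroblast and pericyte, 6 endothelial and 4 leukocyte markers, 0 lay above the median gene on any array.

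Levels below are log2 units made by the authors with RMA, which gives all arrays like distributions; a difference of 1 unit is a 2-fold change, and levels are compared between arrays for the same gene. Words such as dim, the median gene and percentiles place a gene only roughly, since probe sets differ in brightness. Tests are limma's moderated test over 6 groups and all 17958 genes, with Benjamini-Hochberg adjustment and a threshold of 0.05. LKB1 was set against the mean of the pBABE and K78I groups at equal weight, and SE is the standard error of the difference. Separate cultures are not stated for the replicates, and the p-values then measure only how far these arrays spread, which may be technical. In bulk RNA, fewer cells expressing a gene and less RNA per cell cannot be told apart.

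The promoters of IGFBP4, IGFBP6 and IRS1 are shown because these were the members that passed the test for LKB1. Their 250 bases before the RefSeq start (GRCh38.p14) are shown 5′ to 3′ on the gene's own strand, with capitals for every match to the motifs searched on both strands: the cyclic AMP response element TGACGTCA, its core TGACG, which lies within the full element, the FOXO element TGTTT, the TEAD element GGAATG and the TATA box TATAAA.
IGFBP4, chr17:40443200-40443449, plus strand: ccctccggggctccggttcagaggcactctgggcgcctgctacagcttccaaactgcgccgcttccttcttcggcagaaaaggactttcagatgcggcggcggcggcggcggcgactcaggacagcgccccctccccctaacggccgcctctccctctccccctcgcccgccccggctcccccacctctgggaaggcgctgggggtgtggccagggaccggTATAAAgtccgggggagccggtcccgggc
IGFBP6, chr12:53097417-53097666, plus strand: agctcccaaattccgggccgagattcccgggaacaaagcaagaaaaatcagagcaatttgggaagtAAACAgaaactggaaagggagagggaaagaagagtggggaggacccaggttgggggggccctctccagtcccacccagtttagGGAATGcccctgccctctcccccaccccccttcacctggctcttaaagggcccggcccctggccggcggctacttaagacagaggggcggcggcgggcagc
IRS1, chr2:226799821-226800070, minus strand: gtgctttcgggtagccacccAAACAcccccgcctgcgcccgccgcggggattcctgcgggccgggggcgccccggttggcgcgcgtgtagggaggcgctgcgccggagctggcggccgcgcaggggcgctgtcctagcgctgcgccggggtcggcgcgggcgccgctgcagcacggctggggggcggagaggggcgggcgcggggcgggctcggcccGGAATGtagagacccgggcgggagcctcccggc
The IGFBP4 window held the TATA box, beginning 29 bases before the start. The windows of IGFBP6 and IRS1 each held GGAATG on the gene's strand, beginning 101 and 33 bases before the start, and TGTTT on the other strand. Among 35116 windows of this length, 10.7% held TATAAA, 11.9% GGAATG, 40.4% TGTTT, 21.2% TGACG and 1.65% TGACGTCA. Of 10 windows for 8 members (IGFBP2 has 3), 4 held TGTTT, 3 GGAATG, 1 TATAAA and 0 either cyclic AMP motif. IRS2 held TGTTT on its own strand, beginning 40 bases before the start. GC content was 71.6% for IGFBP4, 61.2% for IGFBP6 and 80.8% for IRS1, against a median of 58% over all windows. A match describes these letters and shows no binding. On the genome IGFBP1 lies next to IGFBP3, and IGFBP2 next to IGFBP5.

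**Figure D1:**
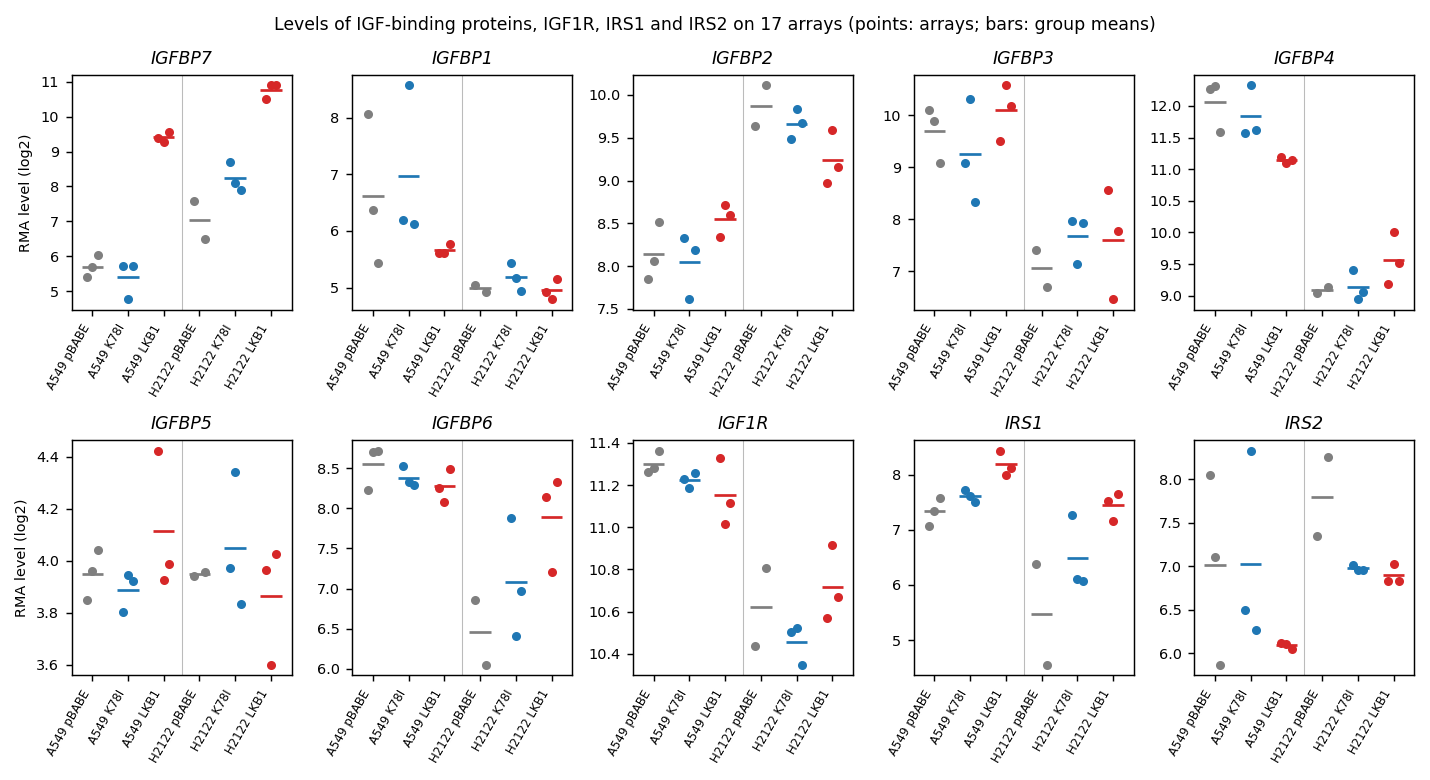
Log2 RMA level (vertical axis, own range in each panel) of the 10 genes on all 17 arrays; each point is 1 array, coloured by construct, with A549 on the left and H2122 on the right of each panel and short lines for group means. IGFBP7 stands highest on the LKB1 arrays of both lines (9.27 to 9.57 in A549, 10.50 to 10.91 in H2122), IGFBP4 is lower on the A549 LKB1 arrays, and IGFBP1 and IRS2 scatter widely among the A549 controls.

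IGFBP7 (probe set 8100541) spanned 4.76 to 10.91 over the 17 arrays. In A549 it read 5.40, 5.68 and 6.03 with pBABE, 5.71, 4.76 and 5.73 with K78I, and 9.40, 9.27 and 9.57 with LKB1. Every LKB1 array lay above every control, and the LKB1 group exceeded the controls by 3.86, a 14.5-fold difference. H2122 cells already had more of the transcript without active LKB1: 7.60 and 6.49 with pBABE and 8.70, 8.10 and 7.90 with K78I. With LKB1 they read 10.50, 10.90 and 10.91, above the controls by 3.13, or 8.75-fold, with no overlap. By each control alone the LKB1 arrays were higher by 4.01 (K78I) and 3.71 (pBABE) in A549, and by 2.54 (K78I) and 3.72 (pBABE) in H2122.

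Leaving out the arrays with doubtful labels kept most of this difference. Without the 2 A549 arrays whose STK11 went against the label it was 3.78, and without the 3 H2122 arrays with conflicting labels it was 2.70. Grouping those 3 by source name instead brought the H2122 difference down to 0.80. That grouping goes against STK11 on H2122 pBABE replicate 2 and K78I replicate 3. Leaving out the 3 arrays with low cell cycle genes gave 3.63 in A549 and 2.85 in H2122. Markers of fibroblasts and pericytes, cells in which IGFBP7 is abundant, averaged 3.79 to 3.93 on A549 controls and 3.90 to 4.07 on A549 LKB1 arrays, and 3.77 to 3.93 against 3.75 to 3.95 in H2122. Of these 7 markers PDGFRA, a growth factor receptor, rose in A549 by 0.78 (limma adjusted p = 0.0284). Its level was dim, between 4.03 and 5.58 over the A549 arrays, and its part in the result was not tested. Of the 6 epithelial markers only CDH1 passed, lower with LKB1 in A549 by 1.17 (adjusted p = 0.0110). The endothelial marker PECAM1 was lower with LKB1 in H2122 by 0.79 (adjusted p = 0.0116).

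Over the 17 arrays, after each gene's mean within each line was subtracted, the genes closest to IGFBP7 were ADAM19, SLC2A12, TSPAN2, PDGFB and ITGB6. Their root mean square differences from IGFBP7 were 0.470, 0.493, 0.506, 0.563 and 0.590, where IGFBP7's own root mean square deviation was 1.73. ADAM19, a membrane metalloproteinase, was higher with LKB1 by 2.87 in A549 and 3.14 in H2122. PDGFB, a growth factor chain, was higher by 2.76 and 2.45, and ITGB6, an epithelial integrin subunit, by 3.06 and 2.54. These genes were picked for likeness to a gene chosen for its rise, so their differences are descriptive.

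Kinase-dead LKB1 offered a further comparison, K78I against pBABE. The same control arrays entered the comparison that chose IGFBP7, so its p-value here is not independent of that choice. In A549, K78I and pBABE arrays overlapped, with IGFBP7 means of 5.40 ± 0.55 (SD, n = 3) and 5.70 ± 0.32 (SD, n = 3). Without the 2 arrays whose STK11 went against the label, K78I read 5.71 and 5.73 and pBABE 5.40 and 5.68. With 2 arrays in each group and 5.68 beside 5.71, these values show no separation. K78I minus pBABE was then 0.18, and this A549 comparison called IGFBP7 in 0 of 30 alternatives. In H2122 all 3 K78I arrays lay above both pBABE arrays, at means of 8.23 ± 0.41 (SD, n = 3) and 7.04 ± 0.78 (SD, n = 2). The share of all genes that do so was not counted. The H2122 difference of 1.19 ± 0.34 (SE, limma adjusted p = 0.486) did not pass. Among all 17958 genes the K78I to pBABE comparison called 0 in either line, so percent called was 0, and 0 of 10 members. For IRS1 the H2122 difference was 1.01 ± 0.42 (SE, limma adjusted p = 0.686). Leaving out H2122 pBABE replicate 1 gave 1.74 for IGFBP7 and 1.93 for IRS1. That fit, in which both passed, has 1 pBABE array left, assumed to vary like the other groups. The array then left, pBABE replicate 2, is the one with a conflicting label and the lowest cell cycle mean. With pBABE replicate 1 left instead, the differences were 0.64 for IGFBP7 and 0.10 for IRS1, and in 29 of 30 alternatives neither passed.

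Among the other 9 genes, 1 in A549 and 2 in H2122 passed for LKB1 against the mean of both controls. In A549 IGFBP4 fell, and the share of all genes called was 8.44% (5.49% higher, 2.95% lower). In H2122 IGFBP6 and IRS1 rose, and the share of all genes called was 7.28% (4.99% higher, 2.29% lower). With 9 genes these counts are near the background in A549, and in H2122 rest on 2 genes. The median difference over the 9 genes was −0.11 in A549, against −0.02 over all genes, and 0.18 in H2122, against −0.04. Counting arrays instead, LKB1 values lay wholly above the controls for 1 of the 9 genes in A549 (IRS1) and below for 1 (IGFBP4), where 15.1% of all genes did not overlap (8.46% above, 6.65% below). In H2122 all 9 overlapped, where 17.4% of all genes did not (8.54% above, 8.82% below). Tested against K78I alone, 0 of the 9 passed in either line, where 5.25% (A549) and 3.89% (H2122) of all genes did. IGFBP7, chosen for its rise, is left out of these counts.

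**Figure D2:**
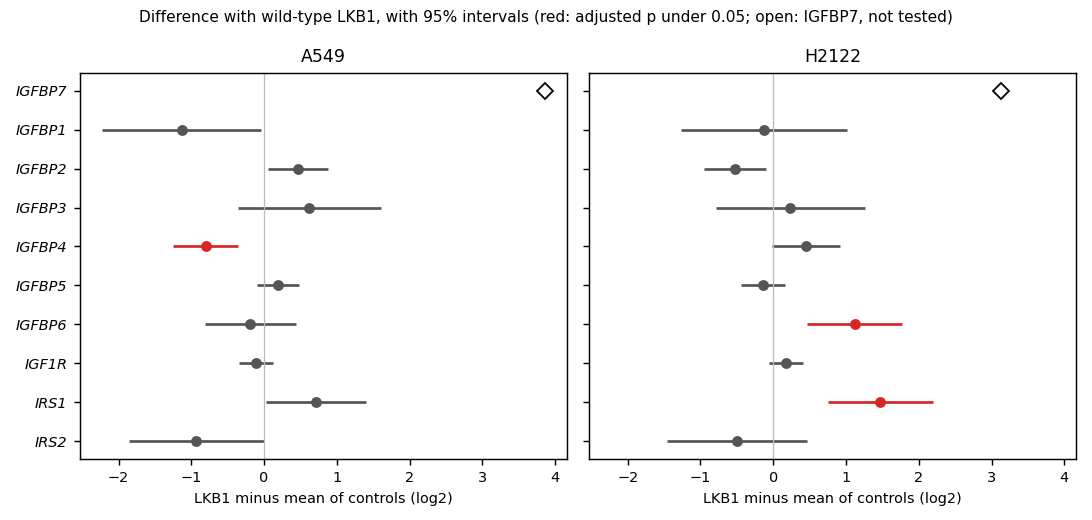
Difference in log2 level, LKB1 minus the mean of both control groups, for each of the 10 genes in A549 and H2122; bars are 95% confidence intervals from the limma fit, and IGFBP7 is drawn as a point without one. IGFBP7 lies at 3.86 and 3.13, IGFBP4 is below 0 in A549 (−0.80), and IGFBP6 (1.12) and IRS1 (1.47) are above 0 in H2122.

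IGFBP4 (probe set 8007100), a carrier that mostly restrains IGF action until PAPPA cuts it, read 12.27, 12.32 and 11.59 on A549 pBABE arrays and 11.57, 12.33 and 11.62 on K78I arrays. With LKB1 it read 11.19, 11.10 and 11.15, below every control. It fell by 0.80 ± 0.21 log2 units (SE, limma adjusted p = 0.0266), or 1.75-fold, with a 95% confidence interval of −1.25 to −0.36. Against pBABE alone the difference was −0.92 (adjusted p = 0.0380, with 5.5% of genes called), and against K78I alone −0.69 (adjusted p = 0.120, with 5.25% called). Each of these control groups holds an array whose STK11 went against the label, pBABE replicate 3 (11.59) and K78I replicate 2 (12.33). The other pBABE arrays read 12.27 and 12.32 and the other K78I arrays 11.57 and 11.62. Without the 2 arrays whose STK11 went against the label the difference was again −0.80 (adjusted p = 0.00614). K78I minus pBABE was −0.70 in that fit, so the control groups averaged there were unlike. With all arrays K78I minus pBABE was −0.22, and it was called in 0 of 30 alternatives. Without the 3 arrays low in cell cycle genes it was −0.63 (adjusted p = 0.0652). The call was also lost without A549 pBABE replicate 1 or 2 (adjusted p = 0.0587 and 0.0598) or any of the 3 A549 LKB1 arrays (0.0838, 0.0941 and 0.101), and, through the shared spread, with the 3 H2122 arrays left out (0.0643) or grouped by source name (0.0525).

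In H2122 the same gene stood lower. Its level was 9.04 and 9.14 with pBABE, 9.40, 8.94 and 9.07 with K78I, and 9.18, 10.01 and 9.51 with LKB1. The LKB1 arrays overlapped the controls, and the difference of 0.45 ± 0.22 (SE, limma adjusted p = 0.274) did not pass. The LKB1 effect in H2122 exceeded that in A549 by 1.26 ± 0.30 (SE, limma adjusted p = 0.0328), which made IGFBP4 the 1 call among the 9 tested genes, against 3.6% of all genes (1.98% higher, 1.63% lower). That call was lost in 10 of the 17 fits that left out an array, with differences of 1.04 to 1.45 over the 17, and without the 3 arrays with conflicting labels (1.29, adjusted p = 0.174). The genes nearest to IGFBP4 over the 17 line-centred arrays were PTK2B (root mean square difference 0.223), ZIC2 (0.235) and HYOU1 (0.240), beside IGFBP4's own deviation of 0.414.

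IGFBP6 (probe set 7955694), which prefers IGF2 over IGF1, rose with LKB1 in H2122. Its level was 6.86 and 6.05 with pBABE, 7.88, 6.41 and 6.97 with K78I, and 8.14, 7.20 and 8.33 with LKB1. K78I replicate 1 lay above the lowest LKB1 array, so the groups overlapped. The rise was 1.12 ± 0.31 (SE, limma adjusted p = 0.0373), or 2.17-fold, with a 95% confidence interval of 0.46 to 1.77. Against pBABE alone it was 1.43 (adjusted p = 0.0374, with 5.77% of genes called), and against K78I alone 0.80 (adjusted p = 0.247, with 3.89% called). Leaving out the 3 arrays with conflicting labels gave 0.67 (adjusted p = 0.473), and grouping them by source name gave −0.10 (adjusted p = 0.963). Leaving out single arrays also lost the call for H2122 LKB1 replicate 1 (0.170) or 3 (0.200), pBABE replicate 2 (0.118), K78I replicate 2 (0.0664) or 3 (0.0784), and A549 LKB1 replicate 1 (0.0513) or 3 (0.0506), all adjusted p-values from limma. Without the 3 arrays low in cell cycle genes the rise was 0.91 (adjusted p = 0.0916).

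In A549 IGFBP6 was at 8.08 to 8.49 on LKB1 arrays and 8.23 to 8.72 on controls, a difference of −0.19 ± 0.29 (SE, limma adjusted p = 0.783). The effects in the lines differed by 1.31 ± 0.42 (SE, adjusted p = 0.125), so a difference between the lines was not shown for IGFBP6. SH3TC2, RAET1L and CLCA2 were nearest to it over the arrays, with root mean square differences of 0.244, 0.248 and 0.266, beside IGFBP6's own 0.548.

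IGFBP1 (probe set 8132694), a carrier regulated by insulin and stress in liver, scattered most among the A549 controls. It read 8.06, 6.37 and 5.44 with pBABE and 6.20, 8.57 and 6.12 with K78I, while the LKB1 arrays were closely grouped at 5.60, 5.60 and 5.77. The difference of −1.13 ± 0.51 (SE, limma adjusted p = 0.211) did not pass. It was −1.03 (adjusted p = 0.0329) without the 2 arrays whose STK11 went against their label, and −0.37 (adjusted p = 0.260) without the arrays low in cell cycle genes. In H2122 IGFBP1 was dim on every array, at 4.79 to 5.43, with a difference of −0.13 (adjusted p = 0.945).

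IGFBP2 (probe set 8048205), a carrier common in epithelial tumours, pointed opposite ways in the lines without passing in either. The A549 values were 7.61 to 8.52 on controls and 8.34 to 8.72 with LKB1, a difference of 0.46 ± 0.19 (SE, limma adjusted p = 0.166). In H2122 they were 9.49 to 10.11 on controls and 8.98 to 9.59 with LKB1, a difference of −0.53 ± 0.20 (SE, adjusted p = 0.144). The difference between the lines was −0.99 ± 0.28 (SE, adjusted p = 0.0675); without the 2 A549 arrays whose STK11 went against the label it was −0.98 (adjusted p = 0.0237), and the H2122 difference then passed too (adjusted p = 0.0497).

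IGFBP3 (probe set 8139488), the main carrier of IGFs in serum, varied widely within groups. It lay at 8.34 to 10.32 on A549 controls and 9.51 to 10.58 with LKB1, and at 6.70 to 7.96 on H2122 controls and 6.46 to 8.57 with LKB1. The differences were 0.62 ± 0.46 (SE, limma adjusted p = 0.492) in A549 and 0.24 (adjusted p = 0.875) in H2122. IGFBP5 (probe set 8058857), a matrix-bound carrier, was dim throughout at 3.60 to 4.42, its mean being at percentile 16.5 of all genes. At that level these arrays give no ground for a change in either direction (0.19, adjusted p = 0.467 in A549, and −0.14, adjusted p = 0.708 in H2122).

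IGF1R (probe set 7986359), the receptor tyrosine kinase that carries the IGF signal, had a high level on every array and did not pass in either line. In A549 it was 11.26, 11.28 and 11.36 with pBABE, 11.23, 11.19 and 11.26 with K78I, and 11.33, 11.02 and 11.11 with LKB1. The difference was −0.11 ± 0.11 (SE, limma adjusted p = 0.627). In H2122 it was 10.35 to 10.81 on controls and 10.57 to 10.92 with LKB1, a difference of 0.18 ± 0.11 (SE, adjusted p = 0.444). The 95% confidence intervals ran from −0.34 to 0.12 in A549 and from −0.06 to 0.42 in H2122.

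IRS1 (probe set 8059470), the docking protein that links IGF1R to PI3-kinase, rose with LKB1 in H2122. It read 6.38 and 4.55 with pBABE, 7.27, 6.10 and 6.07 with K78I, and 7.52, 7.16 and 7.66 with LKB1. The groups overlapped at K78I replicate 1, and pBABE replicate 2, low in cell cycle genes, was the lowest of all. The rise was 1.47 ± 0.34 (SE, limma adjusted p = 0.0140), or 2.77-fold, with a 95% confidence interval of 0.75 to 2.19. It was 1.98 against pBABE alone (adjusted p = 0.0103) and 0.97 against K78I alone (adjusted p = 0.198). Without the 3 arrays low in cell cycle genes it was 1.01 (adjusted p = 0.0256), without the 3 with conflicting labels 0.81 (adjusted p = 0.200), and with those grouped by source name −0.21 (adjusted p = 0.926). Without H2122 LKB1 replicate 1 or 3 the call was lost (adjusted p = 0.0646 and 0.0756).

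In A549 all LKB1 arrays lay above all controls for IRS1, at 8.44, 7.99 and 8.12 against 7.08 to 7.72, yet the difference of 0.71 ± 0.32 (SE, limma adjusted p = 0.214) did not pass. The spread per gene is shared over both lines, and the H2122 controls spanned 4.55 to 7.27. With A549 fitted alone IRS1 passed (adjusted p = 0.0219) and IGFBP4 did not (adjusted p = 0.0647). The difference between the lines was 0.76 (adjusted p = 0.516). P3H2, CAV1 and ARHGDIB were nearest to IRS1 over the arrays, with root mean square differences of 0.294, 0.298 and 0.307, beside 0.723 for IRS1 itself. CAV1, the coat protein of caveolae, was higher with LKB1 by 1.01 in A549 and 1.40 in H2122.

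IRS2 (probe set 7972745), the other main docking protein and a gene induced by cyclic AMP in many tissues, was not called in either line. In A549 it read 8.05, 7.11 and 5.87 with pBABE, 6.49, 8.33 and 6.26 with K78I, and 6.12, 6.10 and 6.05 with LKB1. The lowest control lay under all LKB1 arrays, and the difference was −0.93 ± 0.43 (SE, limma adjusted p = 0.226). It was −0.89 (adjusted p = 0.0168) without the 2 arrays whose STK11 went against the label, and −0.34 (adjusted p = 0.364) without those low in cell cycle genes. In H2122 it was 7.34 and 8.25 with pBABE, 7.01, 6.95 and 6.96 with K78I, and 6.83, 7.02 and 6.83 with LKB1. Both pBABE arrays stood above the rest, and the difference was −0.49 ± 0.45 (SE, adjusted p = 0.649).

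Array by array, IRS2, IGFBP1 and IGFBP4 had their 3 highest A549 values on the same arrays, labelled K78I replicate 2, pBABE replicate 1 and pBABE replicate 2. On these, in that order, IRS2 read 8.33, 8.05 and 7.11, IGFBP1 8.57, 8.06 and 6.37, and IGFBP4 12.33, 12.27 and 12.32. IGFBP2 (7.61, 7.85 and 8.06) and IGFBP7 (4.76, 5.40 and 5.68) had their 3 lowest A549 values there. The share of all genes that set these arrays apart was not counted. STK11 on the same arrays read 7.14, 6.88 and 7.38, the 3 lowest in A549, and the cell cycle mean was lowest on the first pair. The library labelled pBABE replicate 3, at 10.52 for STK11, read 5.87 for IRS2, 5.44 for IGFBP1 and 11.59 for IGFBP4. The part of STK11 and of the cell cycle genes in these levels was not tested.

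**Figure D3:**
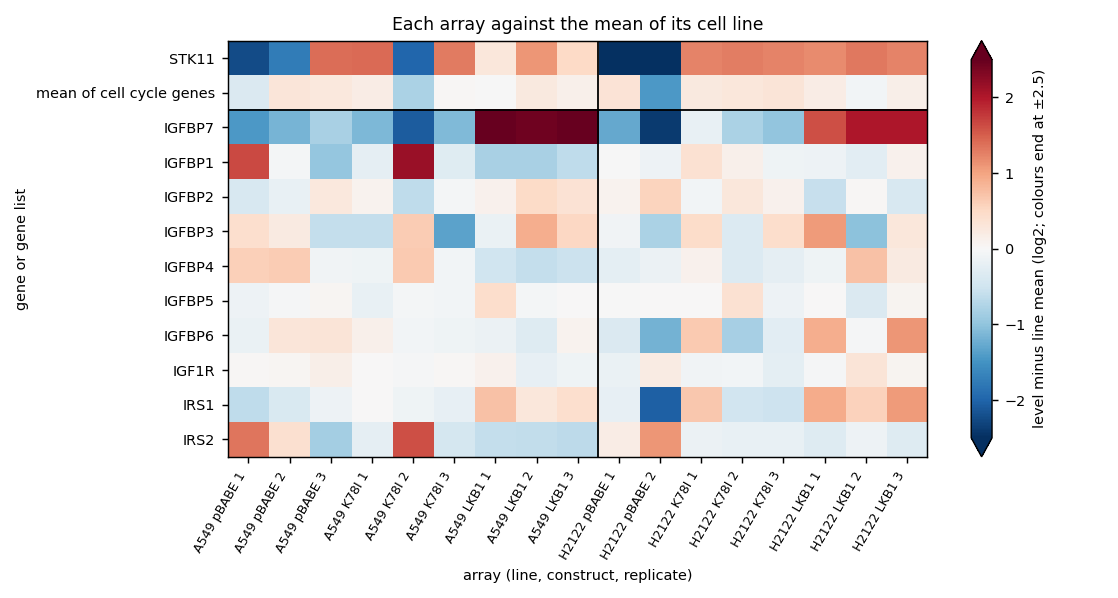
Level of STK11, the mean of the cell cycle genes and the 10 genes (rows) on each of the 17 arrays (columns, by line, construct and replicate), coloured by log2 level minus the mean of the line, red above and blue below, with colours ending at ±2.5. In A549, IGFBP1, IGFBP4 and IRS2 are reddest, and IGFBP2 and IGFBP7 bluest, on the arrays whose STK11 is bluest (7.14, 6.88 and 7.38). IGFBP7 is red on the LKB1 arrays of both lines.

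The rest of the pathway was given by lists, and 56 of 65 listed genes were measured singly. In A549, 7 of the 56 rose and 2 fell with LKB1, where 5.49% of all genes rose and 2.95% fell. In H2122 2 rose and 1 fell, where 4.99% and 2.29% of all genes did. The median difference was 0.00 in A549 and −0.08 in H2122, beside −0.02 and −0.04 over all genes. The lists, like the members, were drawn up with earlier results of these data known.

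Relatives of the IGFBPs gave the largest call of these lists in A549. CCN2, a matricellular protein with an IGFBP-like domain and a classic YAP and TEAD target, was at 8.36 ± 0.61 with pBABE, 9.28 ± 0.21 with K78I and 10.61 ± 0.08 with LKB1 in A549 (SD, n = 3 each). It rose by 1.79 ± 0.30 (SE, limma adjusted p = 0.00150) there and by 1.28 ± 0.31 (SE, adjusted p = 0.0186) in H2122. CCN5, of the same family, rose by 0.73 in A549 (adjusted p = 0.00258), and its effect in H2122 minus that in A549 was −0.75 (adjusted p = 0.0407). Of 13 such relatives, 2 rose in A549 and 1 in H2122, with 0 lower in either, where 8.44% and 7.28% of all genes were called. The H2122 CCN2 call was lost without LKB1 replicate 1 (adjusted p = 0.105), LKB1 replicate 3 (0.0714) or pBABE replicate 2 (0.0681), and with the 3 arrays grouped by source name it was 0.01 (0.997); without the 3 arrays it was 0.83 (0.210), and against K78I alone 0.72 (0.322). The CCN5 difference between the lines was lost in 13 of the 17 fits without 1 array.

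Of 4 measured genes for IGFBP proteases and the stanniocalcins that block PAPPA, 2 passed in A549 (8.44% of all genes called) and 1 in H2122 (7.28%); PAPPA2 passed in neither. In A549 HTRA1, a secreted serine protease, rose by 0.84 (limma adjusted p = 0.0310) and STC2 fell by 1.41 (adjusted p = 0.0396). In H2122 STC1 fell by 2.06 ± 0.50 (SE, adjusted p = 0.0189), from 9.70 ± 0.55 with pBABE (SD, n = 2) and 8.61 ± 0.65 with K78I (SD, n = 3) to 7.10 ± 0.71 with LKB1 (SD, n = 3). The STC1 call was lost without H2122 LKB1 replicate 1 (adjusted p = 0.116), LKB1 replicate 3 (0.0855) or pBABE replicate 2 (0.0599), and with the 3 arrays grouped by source name the difference was −0.41 (0.878); against K78I alone it was −1.51 (0.167). The STC2 call was lost in 17 and the HTRA1 call in 9 of the 32 alternative fits. Without the 3 H2122 arrays with conflicting labels STC1 was at −1.58 (adjusted p = 0.270).

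Among ligands and receptors IGF1 was called higher in A549 (0.39, limma adjusted p = 0.0158), but its level never left the dim end, at 3.56 to 4.15 over the A549 arrays. Leaving out any 1 of the 3 A549 LKB1 arrays lost that call (adjusted p = 0.0532 to 0.0822). INSR and IGF2R did not pass in either line.

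Downstream of the receptor, A549 had calls for 1 of 10 adaptors, 1 of 7 PI3-kinase and AKT genes and 1 of 7 brakes. It also had calls for 0 of 9 mTOR pathway genes and 1 of 3 FOXO factors, where 8.44% of all genes were called. GRB14, an adaptor that inhibits the insulin receptor, fell by 0.64 ± 0.09 (SE, limma adjusted p = 0.000437), from 7.71 ± 0.14 with pBABE and 7.57 ± 0.07 with K78I (SD, n = 3 each) to between 6.90 and 7.08 on the LKB1 arrays. PIK3CD, a PI3-kinase catalytic subunit, rose by 0.93 ± 0.14 (SE, adjusted p = 0.000570), from 5.18 to 5.30 on average in the control groups to 6.17 with LKB1. FOXO1, a transcription factor that AKT restrains, rose by 0.74 ± 0.15 (SE, adjusted p = 0.00547), from 6.57 ± 0.31 and 6.97 ± 0.14 to 7.51 ± 0.16 (SD, n = 3 each), though not against K78I alone (adjusted p = 0.0856). SOCS3, a feedback inhibitor, rose by 0.50 (adjusted p = 0.0387) and lost the call in 17 of the 32 alternative fits. In H2122 SHC3, an adaptor, rose by 0.42 (adjusted p = 0.0245), a call lost in 11 of 32 alternatives. These include the 3 conflicting arrays left out (0.37, adjusted p = 0.176) or grouped by source name (0.22, adjusted p = 0.492), each control alone (0.0917 for K78I, 0.0580 for pBABE) and H2122 fitted alone (0.0562). The 9 mTOR pathway genes did not pass in H2122 either. Their lowest limma adjusted p-values were 0.0882 for RICTOR in A549 and 0.0671 for DEPTOR in H2122. The calls of CCN2, CCN5, GRB14 and PIK3CD in A549 held in all 32 alternative fits.

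Without active LKB1 the lines already differed in most of the 10 genes. Of the 10, 2 were higher and 6 lower in H2122 than in A549 controls, where 40.3% of all genes were called (20.1% higher, 20.3% lower). The higher genes were IGFBP7 by 2.09 ± 0.23 (SE, limma adjusted p = 2.47e-06), or 4.25-fold, and IGFBP2 by 1.68 ± 0.17 (SE, adjusted p = 8.54e-07), or 3.20-fold. These control arrays also entered the comparison that chose IGFBP7, so its p-value here is not independent of that choice. IGFBP4 was lower by the most, at −2.84 ± 0.18 (SE, adjusted p = 5.47e-09), or 7.14-fold. The other lower genes were IGFBP3 at −2.10, IGFBP1 at −1.71, IGFBP6 at −1.69, IRS1 at −1.50 and IGF1R at −0.72, with adjusted p-values from 1.32e-05 to 0.00568. The IGFBP1 call was lost without the 3 arrays with conflicting labels (adjusted p = 0.0549), and the IRS1 call with those arrays grouped by source name (−0.85, adjusted p = 0.136). IGFBP5 (0.08, adjusted p = 0.647) and IRS2 (0.37, adjusted p = 0.487) did not pass. The second IGF1R probe set gave −0.82. For IGFBP7 the H2122 controls averaged 7.76 ± 0.81 (SD, n = 5) and the A549 controls 5.55 ± 0.44 (SD, n = 6), without overlap.

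**Figure D4:**
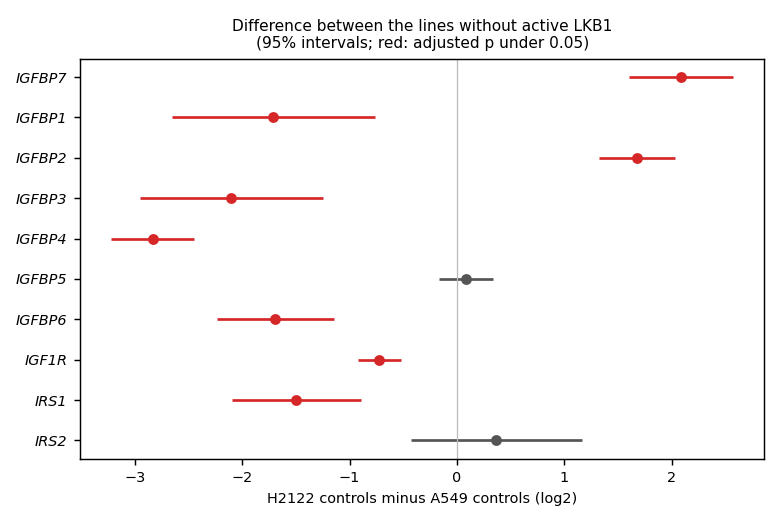
Difference in log2 level between controls, H2122 minus A549, for the 10 genes, with 95% confidence intervals from limma. IGFBP7 and IGFBP2 lie above 0, IGFBP4 lies lowest at −2.84, and the intervals of IGFBP5 and IRS2 cross 0.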

How the data were processed

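Each of 17 samples of the 2 lines was hybridised to 1 Affymetrix array, starting with 130 ng of RNA, per the labels' protocols. The deposited values are log2 levels per probe set. Per the submitters' processing notes the authors used Affymetrix Expression Console 1.1 and RMA, which corrects background, gives arrays like distributions and summarises probes, so a shift of most genes one way cannot be seen. Without detection calls, a dim level and background look alike. For the files' genome build nothing is given in the sources used here.

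Of 33297 probe sets, 19181 had 1 gene symbol, 2055 several and 12061 were not listed in the platform annotation; 19143 identifiers matched a RefSeq table and 0 symbols changed. The probe set brightest over all arrays stood for each gene, which left 17958 genes. All 10 members were measured, 9 by 1 probe set and IGF1R by 2; array medians were 5.62 to 5.73, and 0 sample columns went unused. The number of arrays limits the precision.

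Groups came from titles. Differences were fitted with limma 3.58.1 in R 4.3.3 (lmFit and eBayes, 6 cell means, 11 residual and 3.8 prior degrees of freedom), with Benjamini-Hochberg adjustment over all genes. The fit was tested on simulated data. Members and lists were chosen with earlier results of these data known. The text names all 10 members, STK11, called genes of the pathway lists, and the 5 genes (IGFBP7) or 3 genes (each called member) with the smallest root mean square difference over line-centred arrays; markers are named where a result turns on them. Promoters (RefSeq, GRCh38.p14) matched 8 members. Same-numbered arrays deviated together with correlations of −0.64 to 0.35 in A549 and 0.064 to 0.42 in H2122, so numbers were not taken as pairs. Alternatives were a replicate block, other groupings, omitted arrays, other scalings and filters, other priors and weights, and fits per line or per control.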

Additional observations from a re-analysis of the deposited data

Results flagged for a closer look

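The LKB1 effect on IGFBP4 differed between the lines in the test of the difference itself: H2122 minus A549 was 1.26 log2 units (SE 0.30, limma adjusted p = 0.0328, 95% confidence interval 0.61 to 1.90). All 3 A549 LKB1 arrays lay below all 6 controls, and the H2122 LKB1 arrays overlapped their 5 controls. Without the 2 A549 arrays whose STK11 went against the label the difference was 1.25 (adjusted p = 0.00567). The call was lost in 10 of the 17 fits without 1 array, with grouping by source name (1.08, adjusted p = 0.170) and without the 3 arrays with conflicting labels (1.29, adjusted p = 0.174); 3.6% of all genes were called in this comparison.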

How the results depend on the processing

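The members called numbered 1 of 9 for LKB1 in A549, 2 of 9 in H2122 and 1 of 9 for the difference between lines. Grouping by source name, and leaving out the 3 arrays with conflicting labels, each gave 0, 0 and 0. Grouping by source name also turned IGFBP6 to −0.10 and IRS1 to −0.21 in H2122, since it exchanges constructs. It goes against STK11 on H2122 pBABE replicate 2 and K78I replicate 3. Leaving out the 2 A549 arrays at odds with STK11 gave 3, 3 and 2 (IGFBP1, IGFBP4 and IRS2 in A549), and array weights 3, 3 and 3. Without the 3 arrays low in cell cycle genes A549 had 0 and H2122 1; with median centring H2122 had 1, with each line fitted alone 0, and against K78I alone both lines had 0. Leaving out each of the 17 arrays gave 0 to 1 in A549, 0 to 2 in H2122, 0 to 2 for the difference between lines, and 0 to 2 for K78I against pBABE in H2122. Between the controls of the lines 7 to 9 of 10 members were called under every alternative run, and for K78I against pBABE in A549 0 throughout. IGFBP7 stayed higher with LKB1 under all 32 alternatives, by 3.63 to 4.01 in A549 and 0.80 to 3.72 in H2122. The filter on the dimmest 30% of genes left out IGFBP5. The cause was not tested.

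Over all genes, LKB1 called 1515 in A549, but 943 against K78I alone, 987 against pBABE alone, 875 in a fit per line, 3844 with array weights and 715 to 1924 without 1 array. H2122 had 1308, but 1 by source name, 422 without the conflicting arrays, 2345 without those low in cell cycle genes, 2264 with array weights, 698 against K78I alone and 755 to 1712 without 1 array. The difference between lines had 647, but 175 by source name, 209 without the conflicting arrays, 1706 with array weights and 310 to 870 without 1 array. K78I against pBABE had 0 in both lines, but 1041 in H2122 without pBABE replicate 1 and 35 in A549 without the arrays at odds with STK11.

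With the replicate number as a block the calls were IGFBP4 in A549 (1 gene), IGFBP6 and IRS1 in H2122 (2 genes) and IGFBP4 for the difference (1 gene), with 1421, 1197 and 617 genes called; K78I against pBABE had 0 in both lines and the controls of the lines 8. STC2 and SOCS3 lost their A549 calls under the block (adjusted p = 0.0533 and 0.0540). The number of arrays and dim signal, as for IGFBP5 and IGF1, set the limit of detection.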
